A study of Mus musculus with 8 samples.

Results

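The genes described here are 39 listed regulators and effectors of the cell cycle, among them the cyclins of each phase with cyclin E1 (Ccne1), the kinases they activate, the inhibitors of those kinases, and genes of DNA replication and mitosis. A gene counted as a member if a probe set annotated to its symbol alone was on the array, and the probe set with the highest mean over the 8 arrays stood for it. This gave 38 members of 12393 measured genes. Ccnb1, the main mitotic cyclin B, had no probe set annotated to it alone in the table used and is not analysed here. The members were measured in mouse embryonic fibroblasts of a C57BL/6 x 129Ola background, transfected with B-DNA, the double-stranded poly(dA-dT)-poly(dT-dA), or mock transfected, and taken after 4 h. The 4 genotypes were Tbk1-/- (Ikbke+/+), Ikbke-/- (Tbk1+/+), Tbk1-/- Ikbke-/- and WT (wild type at both genes). Each of the 8 combinations was hybridised to 1 array, so a ratio between 2 arrays has no replicate check. The labels do not say whether the arrays came from separate cultures or embryos, how many embryos gave the cells, or how long the cells had been cultured.

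The cell cycle is driven by cyclins that rise and fall and switch on cyclin-dependent kinases. D-type cyclins with Cdk4 act in G1 in response to growth signals, cyclin E with Cdk2 starts S phase, cyclin A acts in S and G2, and cyclin B with Cdk1 drives mitosis. Inhibitors such as p21 (Cdkn1a) hold the kinases back, E2F factors turn on replication genes at the start of S phase, and mitotic genes are turned on later, so that the RNA of replication and mitosis genes is a common measure of how much a culture is cycling. Tbk1 and the protein encoded by Ikbke are related kinases best known for activating interferon regulatory factors after foreign nucleic acid is sensed in the cytosol.

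The promoters of 3 members are shown because the members gave different kinds of pattern: Ccne1 was higher after B-DNA in Tbk1+/+ cells, Mcm6 is a replication gene and Cdk1 a mitotic one. Each sequence is the 250 bases before the annotated start in the RefSeq table of build GRCm38.p6, on the minus strand, written 5′ to 3′, with capitals marking a motif match. They were chosen after the values had been seen.
Ccne1 (chr7:38107491-38107740): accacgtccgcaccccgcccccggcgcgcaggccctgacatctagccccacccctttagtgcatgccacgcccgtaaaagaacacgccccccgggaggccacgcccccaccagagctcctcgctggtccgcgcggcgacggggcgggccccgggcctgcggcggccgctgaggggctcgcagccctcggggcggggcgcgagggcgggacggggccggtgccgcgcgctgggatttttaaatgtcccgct
Mcm6 (chr1:128359706-128359955): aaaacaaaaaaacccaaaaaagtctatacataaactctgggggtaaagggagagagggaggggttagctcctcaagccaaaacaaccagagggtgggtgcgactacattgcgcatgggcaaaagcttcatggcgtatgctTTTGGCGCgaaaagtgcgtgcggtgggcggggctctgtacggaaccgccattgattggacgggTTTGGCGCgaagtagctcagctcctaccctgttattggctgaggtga
Cdk1 (chr10:69352913-69353162): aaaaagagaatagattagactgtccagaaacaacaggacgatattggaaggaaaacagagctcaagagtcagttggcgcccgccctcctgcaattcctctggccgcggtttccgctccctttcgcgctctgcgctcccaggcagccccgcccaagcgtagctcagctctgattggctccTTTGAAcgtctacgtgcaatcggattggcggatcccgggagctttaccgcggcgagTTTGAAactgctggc

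Motifs of 5 kinds were searched on both strands, from 250 bases before to 50 after the start, in the 30 of 39 listed genes that the promoter table holds. The letters TTTGAA, the cell cycle homology region (CHR) of many mitotic genes, were in 9 of the 30 members' promoters and in those of 20.2% of all 27025 genes in the table. The 9 were Ccnb2, Cdk1, Cdc20, Mcm2, Mki67, Top2a, Aurka, Plk1 and Bub1b. The E2F letters TTTGGCGC were in 4 members (Cdc25a, Mcm3, Mcm5 and Mcm6) against 0.585% of genes, and the E2F letters TTTCCCGC in 5 (Cdk2, Cdkn2a, Cdc6, Mcm3 and Mcm7) against 1.24%. The core of the interferon-stimulated response element, searched as GAAA, any 2 bases and GAAA again, was in 1 member (Bub1b) against 3.99% of genes. The Stat letters TTCNNNGAA were in 1 member (Mcm5) against 9.55%. No motif of the 5 overlapped another in the sequences printed. The Ccne1 window held none of these letters, and 76.0% of its 250 bases were G or C, more than in 96.7% of all 32851 promoters, whose median was 52.4%. These matches describe letters in a window and show no binding.

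Signals are given after each array was scaled to a common trimmed mean of 500, and values under a floor of 122 were treated as having no order. A gene is called higher or lower between 2 arrays where it differed by 2-fold or more and the higher signal was at least 244. The Tbk1 probe set read 226 to 390 on the 4 Tbk1-/- arrays and 472 to 989 on the 4 Tbk1+/+ arrays, while the Ikbke probe set was under the floor on all 8 and checks nothing. Fibroblast markers were present throughout, with 10 to 12 of 12 measured genes at 244 or more on each array. Of 19 macrophage and leukocyte markers, 1 or 2 reached 244 on each of the 6 mutant arrays, against 11 after B-DNA and 15 after mock transfection in WT cells. Their summed signal was 1554 to 1965 on the mutant arrays, with 6162 for the WT B-DNA and 22257 for the WT mock array, so each ratio that uses a WT array is also a ratio between cultures that differ in these genes, and their part in the results was not tested. Xist, which is made from the inactive X chromosome of female cells, read 138 to 209 in both Ikbke-/- genotypes and 2950 to 3766 in Tbk1-/- and WT cells, so the Ikbke genotype and embryo sex cannot be told apart.

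Cyclin E1 was the cell cycle gene that stood out after B-DNA. In cells without Tbk1 its signal after B-DNA was close to the mock level, at 1.13-fold in Tbk1-/- cells and 0.929-fold in Tbk1-/- Ikbke-/- cells. In the genotypes that carry Tbk1 it was higher after B-DNA, 4.47-fold in Ikbke-/- cells and 5.68-fold in WT cells. Of the 19 leukocyte markers, 1 reached 244 on each array of the Ikbke-/- pair, against 11 and 15 on the WT B-DNA and mock arrays. Their part in the Ccne1 ratios was not tested. Ccne1, which binds Cdk2 to start S phase, gave B-DNA and mock signals of 473 and 419 in Tbk1-/-, 638 and 143 in Ikbke-/-, 213 and 229.6 in Tbk1-/- Ikbke-/-, and 2003 and 353 in WT cells. The WT B-DNA array was the highest of the 8, and the Ikbke-/- mock array, close to the floor, was the lowest. The B-DNA signal in Ikbke-/- cells lay below that in WT cells by 3.14-fold and started from a mock signal that was 2.47-fold lower, so the ratios within these genotypes were alike while the levels differed. On the log2 scale the ratios were 0.18 in Tbk1-/-, 2.16 in Ikbke-/-, -0.11 in Tbk1-/- Ikbke-/- and 2.50 in WT cells. Among 12393 genes, this put Ccne1 at rank 2405 from the top in Tbk1-/- and 9119 in Tbk1-/- Ikbke-/- cells, against 118 in Ikbke-/- and 66 in WT cells. In bulk RNA, more cells with the transcript and more transcript per cell cannot be told apart.

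The fit over all 8 arrays gave a difference in the Ccne1 response, Tbk1-/- less Tbk1+/+ genotypes, of -2.30 on the log2 scale (standard error 0.23, 95% interval -2.85 to -1.74, limma adjusted p 0.00613). The mean log2 ratio was 0.04 over the 2 Tbk1-/- pairs and 2.33 over the 2 Tbk1+/+ pairs. Ccne1 was the 1 member of 38 called, against 2.07% of 9626 genes called either way, 1.83% lower and 0.239% higher. The error behind this test has 1 residual degree of freedom before limma's moderation, and the call was lost under settings including a lower floor (adjusted p 0.0853) and no filter on low genes (adjusted p 0.258). Leaving out any 1 genotype also ended the call, at estimates of -2.47 to -2.13 with adjusted p 0.284 to 0.398. The same contrast as a single value, by a 2-sided exact permutation test of 2 against 2 pairs, gave p = 0.333, the smallest the design allows.

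Set against the other cyclins, the B-DNA response of Ccne1 was of a different size. The mean log2 ratio of the other 6 measured cyclins was 0.08 in Tbk1-/-, 0.07 in Ikbke-/-, 0.06 in Tbk1-/- Ikbke-/- and 0.03 in WT cells, with an SD over the 6 genes of 0.30 to 0.38. Ccne1 less this mean was 0.10 in Tbk1-/- and -0.16 in Tbk1-/- Ikbke-/- cells, against 2.09 in Ikbke-/- and 2.47 in WT cells. Among the 38 members it ranked 10 in Tbk1-/- and 30 in Tbk1-/- Ikbke-/- cells, and 1 in both Tbk1+/+ genotypes. The difference between Tbk1-/- and Tbk1+/+ pairs in Ccne1 less the other cyclins was -2.32 (means -0.03 and 2.28), with an exact permutation p = 0.333, again the smallest possible. For the 6 other cyclins the Tbk1 difference in the limma fit lay between -0.37 and 0.78, with no call and a lowest adjusted p of 0.176.

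**Figure D1:**
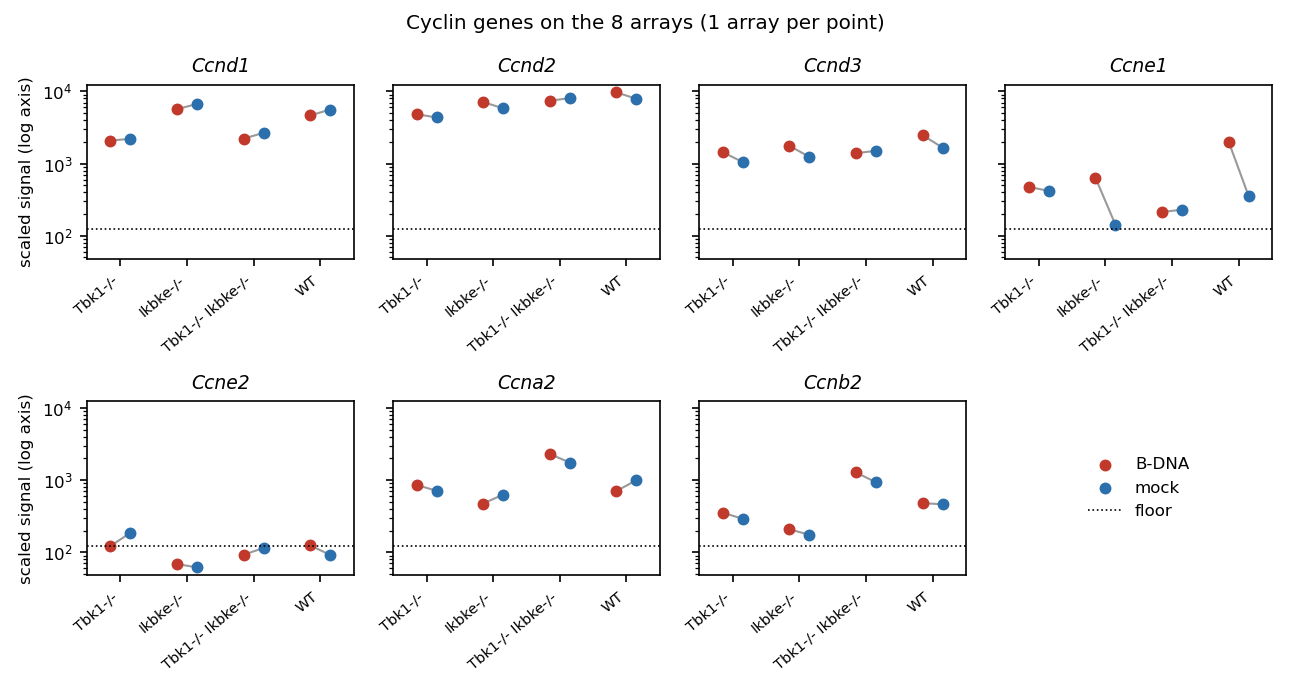
Scaled signal (log axis) of the 7 measured cyclin genes on the 8 arrays, 1 point per array, with the B-DNA array left of the mock array of each genotype and a line joining them; the dotted line is the floor of 122. Ccne1 had 638 and 143 in Ikbke-/- cells and 2003 and 353 in WT cells (B-DNA and mock), the 2 steep lines in the plot, and the other cyclins had no ratio of 2-fold.

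The other cyclins gave smaller ratios. Ccne2, the second cyclin E, reached the floor on 2 of 8 arrays, at 186 on the Tbk1-/- mock array and 124 on the WT B-DNA array, with 61.7 to 122 on the rest. Its response could therefore not be measured. Ccnd1, the growth-factor-responsive D cyclin, gave B-DNA and mock signals of 2075 and 2202 in Tbk1-/-, 5663 and 6695 in Ikbke-/-, 2213 and 2665 in Tbk1-/- Ikbke-/-, and 4645 and 5594 in WT cells. It was slightly lower after B-DNA in each genotype, but its wide spread was between genotypes. Ccnd2, a D cyclin of many mesenchymal cells, gave B-DNA and mock signals of 4815 and 4348 in Tbk1-/-, 7097 and 5809 in Ikbke-/-, 7384 and 8067 in Tbk1-/- Ikbke-/-, and 9654 and 7876 in WT cells. Ccnd3, the third D cyclin, gave B-DNA and mock signals of 1442 and 1047 in Tbk1-/-, 1763 and 1238 in Ikbke-/-, 1389.8 and 1500.1 in Tbk1-/- Ikbke-/-, and 2478 and 1658 in WT cells. Ccnd3 had the largest positive log2 ratio of the other cyclins in 3 genotypes, 0.46 in Tbk1-/-, 0.51 in Ikbke-/- and 0.58 in WT cells. Ccna2, the S and G2 cyclin, gave B-DNA and mock signals of 854 and 711 in Tbk1-/-, 473 and 629 in Ikbke-/-, 2294 and 1745 in Tbk1-/- Ikbke-/-, and 705 and 996 in WT cells. Its 2 probe sets disagreed on the WT response, at -0.50 for the one shown and 0.46 for the other. Ccnb2, a mitotic cyclin, gave B-DNA and mock signals of 354 and 290.4 in Tbk1-/-, 208 and 174 in Ikbke-/-, 1272 and 932 in Tbk1-/- Ikbke-/-, and 479 and 462 in WT cells. Its 4 log2 ratios were above 0, from 0.05 in WT to 0.45 in Tbk1-/- Ikbke-/- cells.

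For the remaining members the 4 h B-DNA response was small, and few passed 2-fold. In Tbk1-/- cells 0 of the 32 members that reached 244 on either array were called, against 0.446% of all genes higher and 0.621% lower. In Ikbke-/- cells 1 of 26 was higher (Ccne1) and 1 lower (Cdk2), against 5.33% of genes higher and 2.46% lower. In Tbk1-/- Ikbke-/- cells 1 of 34 was higher (Mcm2) and 0 lower, against 0.763% and 1.06%. In WT cells 1 of 32 was higher (Ccne1) and 0 lower, against 4.67% and 2.70%. The median log2 ratio of the members was 0.07, -0.26, 0.13 and 0.01 in Tbk1-/-, Ikbke-/-, Tbk1-/- Ikbke-/- and WT cells, and that of all genes 0.04, -0.12, 0.02 and -0.08. With Ccne1 counted, the shares of members called were near these backgrounds or rest on 1 gene, so Ccne1 stood out by its size and not by these counts.

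**Figure D2:**
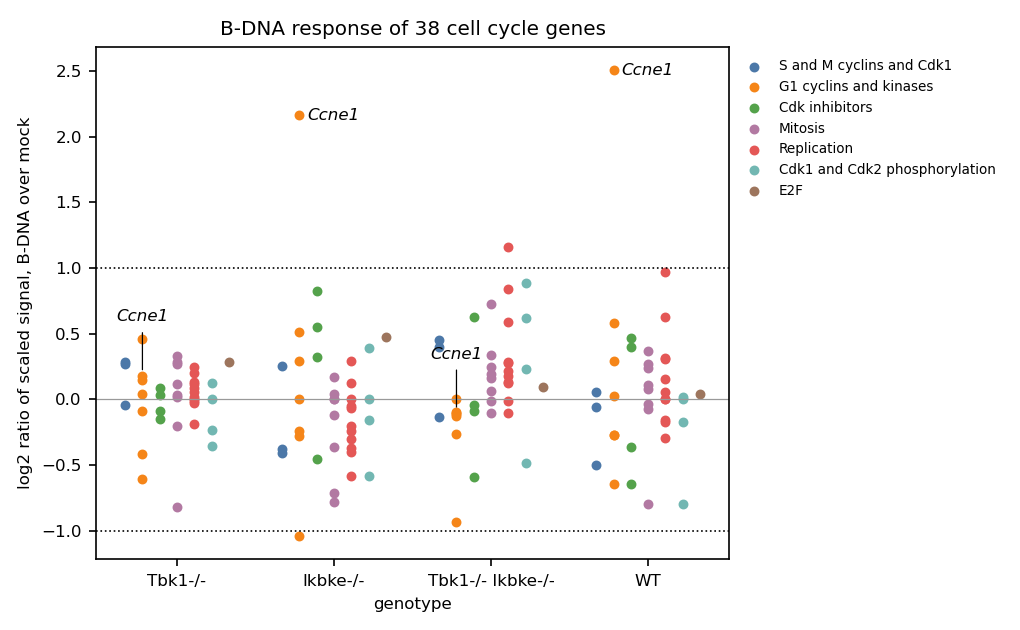
Log2 ratio of B-DNA over mock signal (vertical axis) of the 38 measured members in each genotype, 1 point per gene, coloured by role; dotted lines mark 2-fold. Ccne1 lies within the other members at 0.18 in Tbk1-/- and -0.11 in Tbk1-/- Ikbke-/- cells and apart from them at 2.16 in Ikbke-/- and 2.50 in WT cells.

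Cdk2, the kinase partner of cyclin E, gave B-DNA and mock signals of 323 and 429.8 in Tbk1-/-, 146 and 301 in Ikbke-/-, 167 and 319 in Tbk1-/- Ikbke-/-, and 243 and 380.2 in WT cells. It was lower on the B-DNA array of each genotype, the opposite side from its partner Ccne1 in Tbk1+/+ cells. The average over genotypes was -0.76 on the log2 scale (standard error 0.13, limma adjusted p 0.605), which did not pass. Cdc25a, the phosphatase that activates Cdk2, also had a lower B-DNA signal in each genotype, with 311 and 399 (B-DNA and mock) in Tbk1-/-, 196 and 294 in Ikbke-/-, 273 and 382 in Tbk1-/- Ikbke-/-, and 281 and 316 in WT cells. The limma fit of the average response called 0 of 9626 genes (761 at an unadjusted p under 0.05), with a mean for Ccne1 of 1.18 (standard error 0.52, adjusted p 0.616). Mcm2, a subunit of the replicative helicase, gave B-DNA and mock signals of 548 and 557 in Tbk1-/-, 202 and 209 in Ikbke-/-, 1558 and 698 in Tbk1-/- Ikbke-/-, and 459 and 442 in WT cells. A second Mcm2 probe set had a log2 ratio of -0.22 in Tbk1-/- Ikbke-/- cells, where the one shown had 1.16. Mcm6, another helicase subunit, came just under the threshold in WT cells at a log2 ratio of 0.97, with B-DNA and mock signals of 1191 and 1006 in Tbk1-/-, 607 and 637 in Ikbke-/-, 1125 and 627 in Tbk1-/- Ikbke-/-, and 1512 and 772 in WT cells.

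Among the inhibitors, Cdkn1a (p21, a p53 target that blocks Cdk2) gave B-DNA and mock signals of 3515 and 3892 in Tbk1-/-, 8157 and 4597 in Ikbke-/-, 4014 and 4129 in Tbk1-/- Ikbke-/-, and 7905 and 5988 in WT cells. Both Tbk1-/- genotypes were within 1.11-fold of mock, and both Tbk1+/+ genotypes had the higher signal after B-DNA. A second Cdkn1a probe set did not split the genotypes in this way, with log2 ratios of -0.35 in Tbk1-/-, 0.52 in Ikbke-/-, 0.49 in Tbk1-/- Ikbke-/- and 0.26 in WT cells. The Tbk1 difference of Cdkn1a was -0.71 (limma adjusted p 0.220), and that of Cdkn1b (p27, an inhibitor of Cdk2) was -0.85 (adjusted p 0.181). With Ccne1, 6 members had an unadjusted p under 0.05 for this contrast, the others being Cdkn2c (p18, an inhibitor of Cdk4) at 0.88, Cdc20 (an activator of the anaphase-promoting complex) at 1.05 and Ccna2 at 0.78, with adjusted p of 0.160 to 0.176. A second Ccna2 probe set had log2 ratios of 0.22 in Tbk1-/-, 0.14 in Ikbke-/-, 0.31 in Tbk1-/- Ikbke-/- and 0.46 in WT cells. These did not split by Tbk1. A second Cdc20 probe set had -0.29, -0.45, 0.42 and -0.13 in the same order, a narrower range than the one shown. Of all 9626 genes, 1587 had an unadjusted p under 0.05. For dependence on Ikbke, 0 of 9626 genes were called (435 unadjusted). Pkmyt1, a kinase that restrains Cdk1, at 1.15 and Mki67, the proliferation antigen Ki-67, at -0.68 were the 2 members with an unadjusted p under 0.05, both at adjusted p 0.978.

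**Figure D3:**
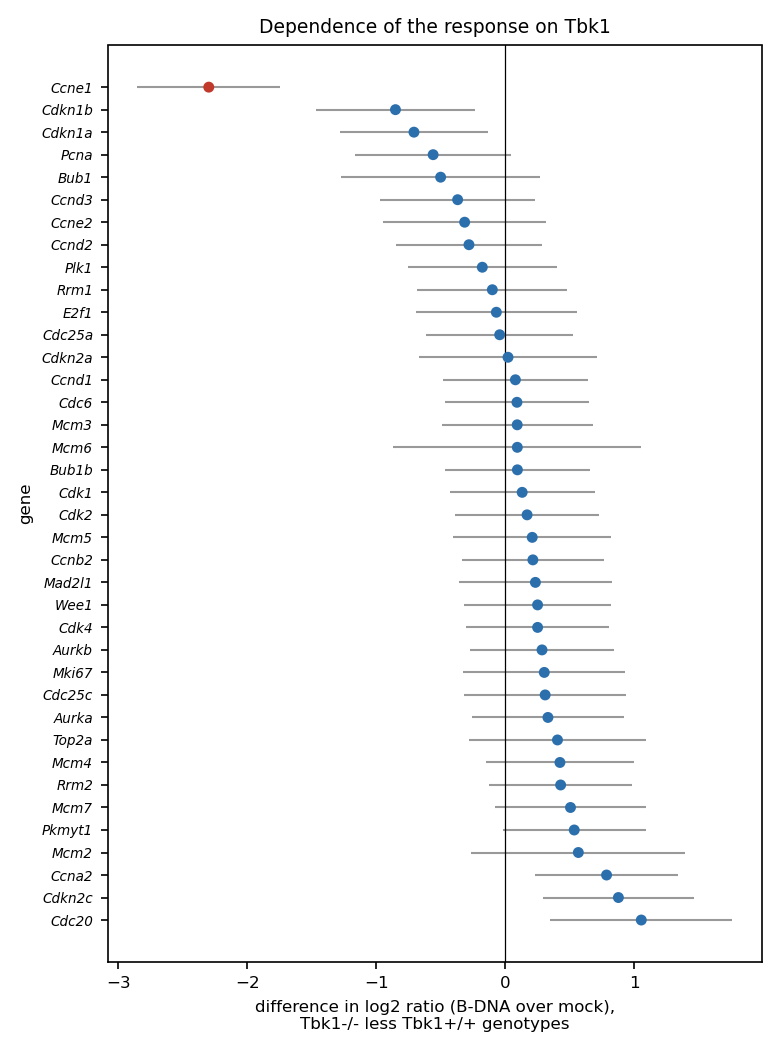
Difference in log2 ratio (B-DNA over mock), Tbk1-/- less Tbk1+/+ genotypes, for the 38 members from the limma fit, with 95% intervals; the red point passed the adjusted threshold over all genes. Ccne1 lies at -2.30 with an interval of -2.85 to -1.74, and the other members lie between -0.85 and 1.05.

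More members were 2-fold apart between genotypes than after B-DNA, most of them replication and mitosis genes. On mock arrays, Ikbke-/- cells had 16 of 32 members lower than WT cells and 0 higher, against 4.58% of all genes lower and 3.38% higher. Tbk1-/- Ikbke-/- cells had 9 of 35 higher and 1 lower, against 7.70% higher and 7.63% lower, but 1 higher and 6 lower with the deposited signals left unscaled, against 1.68% and 32.8% of genes on that scale. Tbk1-/- cells had 1 of 32 lower (Ccnd1) and 0 higher, against 4.91% and 3.29%. The median log2 ratio of the members to WT was -0.17 in Tbk1-/-, -0.83 in Ikbke-/- and 0.61 in Tbk1-/- Ikbke-/- cells, beside -0.03, -0.01 and 0.07 for all genes. The Tbk1-/- Ikbke-/- direction depends on array scaling: without further scaling, the members' median was -0.15 and that of all genes -0.74, and the members stayed above all genes by 0.59 (0.53 after scaling). In Ikbke-/- cells the members lay 0.82 below all genes after scaling and 0.65 below without it.

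The order of the genotypes was nearly the same across replication and mitosis genes. Over the 22 members that are replication genes, mitosis genes, S and M cyclins or Cdk1, the geometric mean signal on the B-DNA and mock arrays was 604 and 583 in Tbk1-/-, 321 and 365 in Ikbke-/-, 1270.3 and 1052 in Tbk1-/- Ikbke-/-, and 690 and 659 in WT cells. On these scaled arrays Tbk1-/- and WT cells were neighbours, Ikbke-/- cells lay below them and Tbk1-/- Ikbke-/- cells above. With the deposited signals all multiplied by 1 common factor, the B-DNA and mock means were 661 and 720.4 in Tbk1-/-, 317 and 414 in Ikbke-/-, 994 and 731 in Tbk1-/- Ikbke-/-, and 607 and 758 in WT cells. Ikbke-/- cells stayed lowest and the Tbk1-/- Ikbke-/- B-DNA array highest, but the Tbk1-/- Ikbke-/- mock array was no longer above the WT one. Of the 21 of these genes that reached 244, mock Ikbke-/- cells were the lowest genotype for 18 and mock Tbk1-/- Ikbke-/- cells the highest for 19, against 25.1% and 40.6% of all 7601 genes that reached 244. On B-DNA arrays the counts were 19 and 19, against 30.7% and 38.4% of all genes. Without scaling, Ikbke-/- cells were lowest for 18 of 21 mock and 20 of 21 B-DNA values, against 10.5% and 19.7% of all genes. Tbk1-/- Ikbke-/- cells were then highest for 9 of 21 mock and 18 of 21 B-DNA values, against 5.59% and 16.6%. The limma test of levels on the 4 genotype means called 0 of 9626 genes for Tbk1 (365 unadjusted) and 0 for Ikbke (238 unadjusted). The lowest adjusted p of a member was 0.829, for Ccnd1.

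**Figure D4:**
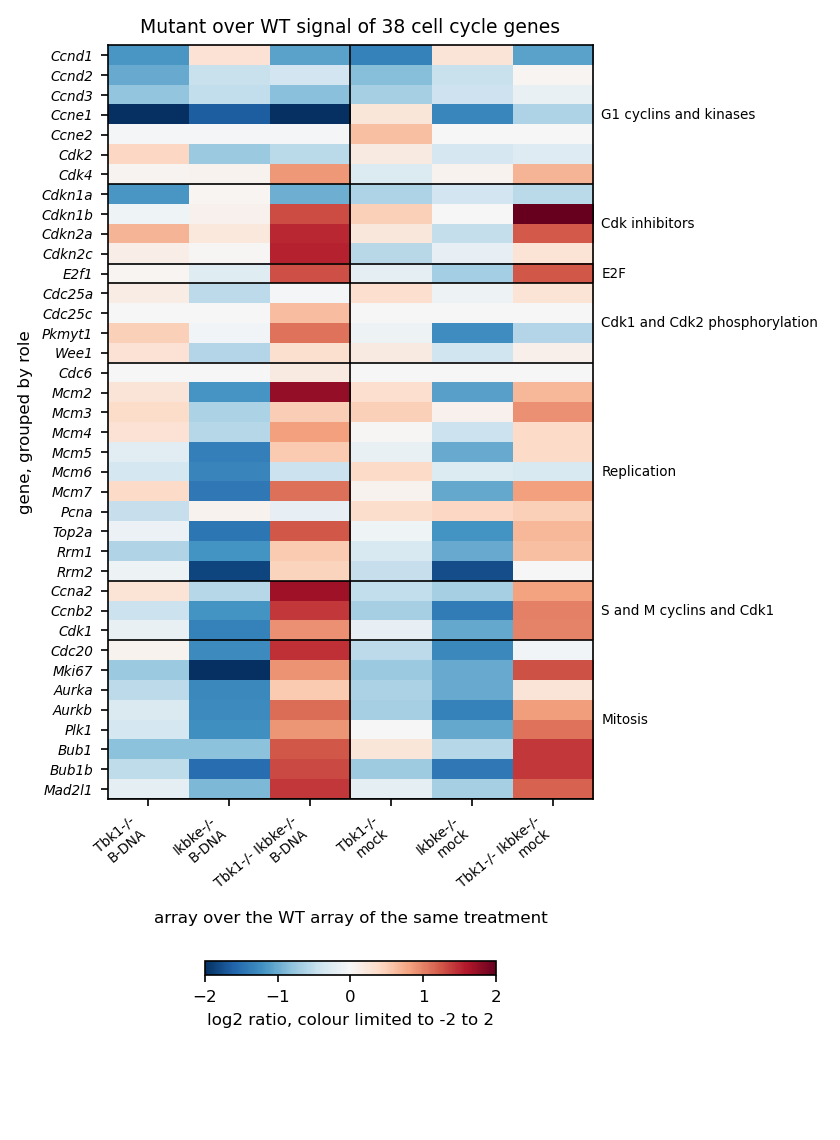
Log2 ratio of each mutant array to the WT array of the same treatment for the 38 members (rows, grouped by role), with B-DNA arrays in the 3 left columns and mock arrays in the 3 right ones. Ikbke-/- columns are mostly blue in the replication and mitosis rows (mock median of members -0.83) and Tbk1-/- Ikbke-/- columns mostly red (0.61, which is -0.15 if arrays are left unscaled).

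Mitosis genes had the most calls on mock arrays, although as many replication genes were lower in Ikbke-/- cells. Of 7 mitosis members that reached 244 on the mock Ikbke-/- or WT array, 6 were lower in Ikbke-/- cells, against 4.58% of all genes. Of 8 in the other pair, 5 were higher in Tbk1-/- Ikbke-/- cells on the scaled arrays, against 7.70% of all genes. Bub1b, a kinase-like protein of the spindle checkpoint, gave B-DNA and mock signals of 245 and 202 in Tbk1-/-, 118 and 85.9 in Ikbke-/-, 875 and 883 in Tbk1-/- Ikbke-/-, and 349.6 and 331 in WT cells. On mock arrays it was at least 2.71-fold lower than WT in Ikbke-/- cells, where it was under the floor, and 2.67-fold higher in Tbk1-/- Ikbke-/- cells. Bub1, its partner kinase in the checkpoint, gave B-DNA and mock signals of 112 and 216 in Tbk1-/-, 48.5 and 51.6 in Ikbke-/-, 507 and 486 in Tbk1-/- Ikbke-/-, and 215 and 182 in WT cells. Mki67 gave B-DNA and mock signals of 490.5 and 408 in Tbk1-/-, 207 and 339 in Ikbke-/-, 1535 and 1649 in Tbk1-/- Ikbke-/-, and 821 and 680.3 in WT cells. Both genes were highest in Tbk1-/- Ikbke-/- cells under either treatment, and Mki67 was lowest in Ikbke-/- cells, while Bub1 was under the floor on both Ikbke-/- arrays and on the Tbk1-/- B-DNA array.

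Plk1, a kinase of mitotic entry and spindle assembly, gave B-DNA and mock signals of 416 and 409.8 in Tbk1-/-, 228 and 203 in Ikbke-/-, 981 and 877 in Tbk1-/- Ikbke-/-, and 533 and 413 in WT cells. Aurka, the centrosomal Aurora kinase, gave B-DNA and mock signals of 341 and 334 in Tbk1-/-, 201 and 259 in Ikbke-/-, 704 and 617 in Tbk1-/- Ikbke-/-, and 491 and 517 in WT cells. Aurkb, the Aurora kinase of the chromosomal passenger complex, gave B-DNA and mock signals of 275 and 219 in Tbk1-/-, 139.8 and 136 in Ikbke-/-, 729 and 616 in Tbk1-/- Ikbke-/-, and 337 and 346 in WT cells. These 3 kinases kept the same lowest and highest genotype. Mad2l1, which holds the anaphase-promoting complex inactive until chromosomes are attached, gave B-DNA and mock signals of 511 and 472 in Tbk1-/-, 312 and 338 in Ikbke-/-, 1542 and 1219 in Tbk1-/- Ikbke-/-, and 578 and 537 in WT cells. Cdc20, which Mad2l1 inhibits, gave B-DNA and mock signals of 851 and 979 in Tbk1-/-, 334 and 575 in Ikbke-/-, 2234 and 1349.6 in Tbk1-/- Ikbke-/-, and 809 and 1407 in WT cells. Here the WT mock signal was the highest of the mock arrays by a small margin. By a second Cdc20 probe set the Tbk1-/- Ikbke-/- mock signal was highest, at 1290 against 830 in WT cells. The B-DNA value of Cdc20 lay below mock in 3 genotypes and above it in Tbk1-/- Ikbke-/- cells, each by less than 2-fold. Cdk1, the kinase of mitotic entry, gave B-DNA and mock signals of 1256 and 1292 in Tbk1-/-, 544 and 707 in Ikbke-/-, 2603 and 2861 in Tbk1-/- Ikbke-/-, and 1386 and 1443 in WT cells.

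Replication genes followed the same order with smaller steps in the double mutant. On mock arrays 6 of 10 were lower in Ikbke-/- than in WT cells, against 4.58% of all genes. In Tbk1-/- Ikbke-/- cells 0 of 10 were 2-fold higher, against 7.70% of all genes. Rrm2, the S phase subunit of ribonucleotide reductase, gave B-DNA and mock signals of 1090.1 and 1047 in Tbk1-/-, 328 and 424 in Ikbke-/-, 1596 and 1456 in Tbk1-/- Ikbke-/-, and 1173 and 1441 in WT cells. Its mock signal in Ikbke-/- cells was 3.40-fold lower than WT, and its 3 probe sets gave log2 ratios of -1.80 to -1.75. Rrm1, the large subunit, gave B-DNA and mock signals of 1024 and 1014 in Tbk1-/-, 680.2 and 623 in Ikbke-/-, 2228 and 1917 in Tbk1-/- Ikbke-/-, and 1556 and 1259 in WT cells. Top2a, the topoisomerase that untangles replicated chromosomes, gave B-DNA and mock signals of 1248 and 1259.9 in Tbk1-/-, 497 and 586 in Ikbke-/-, 3190.3 and 2123 in Tbk1-/- Ikbke-/-, and 1347 and 1344 in WT cells. For both genes Tbk1-/- cells lay between Ikbke-/- and WT cells. Mcm7, a helicase subunit, gave B-DNA and mock signals of 1774 and 1616 in Tbk1-/-, 505 and 758 in Ikbke-/-, 2946 and 2709.5 in Tbk1-/- Ikbke-/-, and 1366 and 1538 in WT cells. Mcm5, another, gave B-DNA and mock signals of 412 and 389 in Tbk1-/-, 186 and 214 in Ikbke-/-, 685 and 562 in Tbk1-/- Ikbke-/-, and 478 and 430.0 in WT cells.

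Mcm3 and Mcm4 were not 2-fold apart from WT on mock arrays by the probe sets shown. Pcna, the sliding clamp of DNA polymerase, broke the order, with B-DNA and mock signals of 4239.8 and 4826 in Tbk1-/-, 6163 and 5037 in Ikbke-/-, 5220.0 and 5277 in Tbk1-/- Ikbke-/-, and 5839 and 3786 in WT cells. Its lowest mock value was that of WT cells. Mcm6 also broke it by the probe set shown, since its mock signal in Tbk1-/- Ikbke-/- cells was the lowest of the 4. A second Mcm6 probe set read 254 in Tbk1-/- and 196 in Tbk1-/- Ikbke-/- mock cells, and was under the floor in Ikbke-/- and WT mock cells. The lowest mock value of Mcm3 was also that of WT cells, 381 against 406 in Ikbke-/- cells. Another Mcm3 probe set had a log2 ratio of -1.05 for Ikbke-/- mock over WT mock. Probe sets of Mcm2 differed for Ikbke-/- mock over WT mock, with a log2 ratio of -1.08 for the one shown and -0.19 for the other. Of the 16 members called lower in Ikbke-/- mock cells, 8 had a log2 ratio of -1.08 or nearer to 0, close to the 2-fold limit. Cdc6, which loads the helicase, reached the floor on 1 array (138 on the Tbk1-/- Ikbke-/- B-DNA array).

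The D and E cyclins had their own order. Ccnd1 split the genotypes by Tbk1, with mock signals of 2202 in Tbk1-/- and 2665 in Tbk1-/- Ikbke-/- cells, against 6695 in Ikbke-/- and 5594 in WT cells. This was 2.54-fold lower than WT in Tbk1-/- cells and 2.10-fold lower in Tbk1-/- Ikbke-/- cells, and both arrays of each Tbk1-/- genotype lay below every Tbk1+/+ array. The mean Tbk1 difference was -1.30 (limma adjusted p 0.829). Other Ccnd1 probe sets gave Tbk1-/- mock ratios of -1.92 and -3.21 but Tbk1-/- Ikbke-/- mock ratios of -0.86 and 0.01, so the double mutant was 2-fold below WT by 1 of 3 probe sets. Ccnd2 was lowest in Tbk1-/- cells, at a log2 ratio to WT mock of -0.86, and 5 other probe sets that reached 244 gave -2.15 to -0.65. Cdk4, the partner of the D cyclins, gave B-DNA and mock signals of 2567 and 2497 in Tbk1-/-, 2595 and 3153 in Ikbke-/-, 4515 and 4819.7 in Tbk1-/- Ikbke-/-, and 2482 and 3002 in WT cells.

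The inhibitors of the INK4 and CIP/KIP families and E2f1 were mostly highest in the double mutant on the scaled arrays. Cdkn1b gave B-DNA and mock signals of 159 and 170.0 in Tbk1-/-, 179 and 102 in Ikbke-/-, 418 and 630.1 in Tbk1-/- Ikbke-/-, and 169 and 111 in WT cells. The mock signal in Tbk1-/- Ikbke-/- cells was at least 5.16-fold that of WT cells, which was under the floor. Cdkn2a, the locus of p16 and p19Arf, gave B-DNA and mock signals of 377 and 355 in Tbk1-/-, 271 and 217 in Ikbke-/-, 669 and 711 in Tbk1-/- Ikbke-/-, and 235 and 302 in WT cells. Cdkn2c gave B-DNA and mock signals of 753 and 736 in Tbk1-/-, 700.0 and 957 in Ikbke-/-, 2006 and 1301 in Tbk1-/- Ikbke-/-, and 689.7 and 1076 in WT cells. These 3 inhibitors and most replication and mitosis genes shared their highest genotype on the scaled arrays. There the double mutant was highest for 3 of 4 inhibitors under either treatment. The shares of all genes were 40.6% on mock and 38.4% on B-DNA arrays. The Cdkn2c mock signal was 1.21-fold that of WT cells after scaling by 3.58, against 2.11 for WT. Its mock order therefore depends on the scaling. Without scaling, the double mutant was highest on mock arrays for 12 of 35 members, against 5.59% of all genes. The inhibitors were not counted on that scale. E2f1, the activator of S phase genes, gave B-DNA and mock signals of 223 and 184 in Tbk1-/-, 183 and 132 in Ikbke-/-, 534 and 499 in Tbk1-/- Ikbke-/-, and 217 and 211 in WT cells. Pkmyt1 gave B-DNA and mock signals of 369.5 and 434 in Tbk1-/-, 256 and 196 in Ikbke-/-, 568 and 307 in Tbk1-/- Ikbke-/-, and 266 and 463 in WT cells, and Wee1, the other inhibitory kinase of Cdk1, was within 1.5-fold of WT on mock arrays. Cdc25c, the phosphatase that activates Cdk1, reached the floor on 1 array (187 on the Tbk1-/- Ikbke-/- B-DNA array).

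The B-DNA arrays, which hold other hybridisations of the same genotypes, were compared with the WT B-DNA array in the same way. Ikbke-/- cells again had 16 members lower, of 31, and 0 higher, against 5.17% of genes lower and 4.13% higher, and Tbk1-/- Ikbke-/- cells had 15 of 34 higher and 2 lower, more than on mock arrays, against 11.0% and 9.24%. Tbk1-/- cells had 4 of 32 lower (Ccnd1, Ccnd2, Ccne1 and Cdkn1a) and 0 higher, against 8.20% and 6.28%. The Tbk1-/- mock array, where 2 leukocyte markers reached 244, was also used in place of the WT mock array. Against it, Ikbke-/- cells had 7 of 30 members lower and 1 higher (against 4.24% and 4.85%). Tbk1-/- Ikbke-/- cells had 12 of 35 higher and 0 lower (against 11.9% and 9.46%). This count depends on scaling, with factors of 3.58 for the Tbk1-/- Ikbke-/- and 1.96 for the Tbk1-/- mock array. Without scaling, the geometric mean of the 22 replication and mitosis members was 731 and 720 on these 2 mock arrays. On B-DNA arrays the factors were 3.14 in Tbk1-/- Ikbke-/- and 2.79 in WT cells. Counts without scaling are not given for these comparisons. These comparisons share arrays with one another.

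Of 5 lists of other genes, those of mitosis and replication gave counts in the same directions on the scaled arrays. Without scaling, mock Ikbke-/- cells had 1 of 18 genes of the G1/S list higher than WT and 1 lower. For other cyclins 1 of 8, and for p53 targets 1 of 13, were lower and 0 higher. On the same scale the mitosis list had 1 of 27 higher and 8 lower, and the replication list 0 of 22 higher and 3 lower. Of all genes on that scale, 3.45% were higher and 4.95% lower. In mock Tbk1-/- Ikbke-/- cells without scaling, 1 of 18 genes of the G1/S list was higher and 5 lower. For other cyclins 1 of 8 was higher and 0 lower, and for p53 targets 0 of 12 were higher and 3 lower. Of all genes there, 1.68% were higher and 32.8% lower. Of 34 measured mitosis genes outside the members, mock Ikbke-/- cells had 8 of 24 lower than WT and 1 higher (median -0.69), against 4.58% and 3.38% of all genes. Mock Tbk1-/- Ikbke-/- cells had 12 of 31 higher and 0 lower (median 0.85), against 7.70% and 7.63%, but 1 of 29 higher and 1 lower without scaling (median 0.15). Of all genes without scaling, 1.68% were higher and 32.8% lower (median -0.74). Birc5 (survivin), Ncapd2 (a condensin subunit), Anln (anillin) and Hmmr were the most reduced in Ikbke-/- cells, with log2 ratios of -1.48, -1.45, -1.34 and -1.33. Ncapd2, Kif20a, Cenpf and Cenpa, which act in chromosome condensation, cytokinesis and at the kinetochore, were the highest against WT in Tbk1-/- Ikbke-/- cells on the scaled arrays, at 1.78, 1.73, 1.56 and 1.51. Of 35 measured replication genes, mock Ikbke-/- cells had 3 of 22 lower (Mcm10, Fen1 and Uhrf1) and 0 higher. Mock Tbk1-/- Ikbke-/- cells had 7 of 27 higher, led by Rpa3 at 1.67, and 0 lower. Without scaling, 0 of 22 were higher and 3 lower, and the list's median was -0.40 beside -0.74 for all genes. The shares of all genes are those given for the mitosis list on each scale. After B-DNA, 2 genes of these lists were higher in both Tbk1+/+ genotypes and in neither Tbk1-/- one. The share of all genes with this joint pattern was not counted, so the 2 cannot be set against a background. The G1/S list had 1 of 18 genes higher in Ikbke-/- and 1 of 17 in WT cells. The mitosis list had 1 of 15 and 1 of 25. Taken singly, 5.33% of all genes were higher in Ikbke-/- cells and 4.67% in WT cells. Rbl1 (p107, a partner of repressive E2Fs) had log2 ratios of 0.62 in Tbk1-/-, 1.73 in Ikbke-/-, 0.37 in Tbk1-/- Ikbke-/- and 1.27 in WT cells. Pttg1 (securin, which guards sister chromatid cohesion) had 0.30 in Tbk1-/-, 1.64 in Ikbke-/-, -0.03 in Tbk1-/- Ikbke-/- and 1.04 in WT cells. Neither passed the limma test of Tbk1 dependence, which called 0 genes of the 5 lists, with a lowest adjusted p of 0.127 in the mitosis list and 0.152 in the G1/S list. Skp2 (-1.20), the F-box protein that marks p27 for destruction, Cdt1 (-1.13) and Dbf4 (-1.30), which act at replication origins, were lower after B-DNA in Ikbke-/- cells, and Myc (1.10) was higher in Tbk1-/- Ikbke-/- cells. Of 14 other cyclins measured, 7 to 9 reached 244 in a genotype, and 0 were called after B-DNA in each.

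Over the 8 arrays, the 5 genes of 9625 whose log2 signals were most correlated with Ccne1 were Atp13a1 (Pearson r 0.99), Dcbld1 (0.99), Ehd3 (0.98), Il6 (0.96) and Prcp (0.95). The arrays share genotypes and treatment, and no test was made. Il6, the cytokine interleukin 6, gave B-DNA and mock signals of 374 and 521 in Tbk1-/-, 772 and 94.6 in Ikbke-/-, 155 and 86.9 in Tbk1-/- Ikbke-/-, and 1861 and 345 in WT cells. Atp13a1, an ATPase of the endoplasmic reticulum, followed Ccne1 over a far narrower range, with 1120.5 and 1095 in Tbk1-/-, 1149.5 and 983 in Ikbke-/-, 1001 and 1042 in Tbk1-/- Ikbke-/-, and 1373 and 1061 in WT cells (B-DNA and mock). No other cell cycle member was among the 5.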

How the data were processed

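One-colour Affymetrix arrays, 8 in all, measured RNA of mouse embryonic fibroblasts of 4 genotypes after B-DNA or mock transfection. The deposited signal intensity per probe set is linear and was made by the authors with MAS5 (version 5.0 of the software, per the design text), and its scaling target is not given in the sources used here. The 2% trimmed means of the deposited arrays were 140 to 255, and factors of 1.96 to 3.58 brought each to 500. Values below the 40th percentile (122) were set to it before log2. The array type named in the design text differs from the one to which the probe set names belong. Of 22690 probe sets, 64 were controls. Of the others, 20380 had 1 gene symbol, 691 several and 1555 none, and 20351 symbols could be updated by gene number from RefSeq (GRCm38.p6).

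Calls between 2 arrays needed 2-fold or more and a signal of 244. Tests used limma 3.58.1 in R 4.3.3 (2-sided, Benjamini-Hochberg threshold 0.05) on the 9626 genes that reached the floor: the average response with genotype as a block (3 residual degrees of freedom), dependence on Tbk1 and Ikbke as interactions in 1 fit (1 residual degree of freedom), and levels on 4 genotype means. The fits were checked on simulated data. The p-values reflect only how these arrays differ, which may be technical, and the number of arrays limits the precision. Members, gene lists and tests were chosen with earlier results of these data known. Values on every array are given for the cyclins and for members 2-fold apart in a pair of arrays. From the 5 lists, genes 2-fold apart are named, up to 4 per list and comparison. Alternatives covered scaling, floor, pseudocount, probe set summary, fold threshold, filter and leaving out a genotype.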

Additional observations from a re-analysis of the deposited data

Results flagged for a closer look

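The Ccne1 response to B-DNA differed between genotypes without and with Tbk1, by a test of the difference itself. The interaction of treatment with Tbk1 was -2.30 on the log2 scale (limma adjusted p 0.00613), with mean log2 ratios of 0.04 in the 2 Tbk1-/- pairs and 2.33 in the 2 Tbk1+/+ pairs. Each of the 2 Tbk1-/- pairs was below each of the 2 Tbk1+/+ pairs. Ccne1 has 1 probe set, so no second probe set checks it.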

How the results depend on the processing

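Under the other settings 153 values stayed on their side of the threshold or within their tolerance, 31 counts moved and 7 calls weakened, and of those added after seeing the data 4 stayed and 6 moved. The Ccne1 ratios kept their size, at 0.00 to 0.18 in Tbk1-/- and -0.11 to 0.08 in Tbk1-/- Ikbke-/- cells over 5 alternatives, and 1.93 to 2.16 in Ikbke-/- and 2.10 to 2.54 in WT cells. The Ccne1 Tbk1 difference kept its sign in 12 alternatives and its call in 5 (no further scaling, quantile normalization, mean of probe sets, genes above the floor on all arrays, and the Tbk1 interaction alone). It was -2.30 (adjusted p 0.0853) with the floor at the 20th percentile, -2.21 (0.0614) for log2(value + 16) and -2.30 (0.258) with no filter on low genes, with 0 members called in each. Leaving out 1 genotype gave -2.47 to -2.13 (adjusted p 0.284 to 0.398) and 0 to 0 members called; such fits have fewer arrays. Replicates could not be paired, since each group has 1 array, and the average response already pairs B-DNA with mock by genotype.
Without further scaling, B-DNA responses had 1 member lower in Tbk1-/-, 2 lower in Ikbke-/-, 3 higher in Tbk1-/- Ikbke-/- and 4 lower in WT cells, and mock Tbk1-/- Ikbke-/- over WT had 1 higher and 6 lower. This scaling choice moved the median of all genes by -0.18, -0.23, 0.19 and -0.40 in the 4 responses (Tbk1-/-, Ikbke-/-, Tbk1-/- Ikbke-/-, WT), and by -0.76 for mock Tbk1-/- Ikbke-/- over WT. Quantile normalization and log2(value + 16) each left 0 members lower after B-DNA in Ikbke-/- cells. The 20th percentile floor gave 2 higher in WT after B-DNA and 1 higher in mock Tbk1-/- over WT. The mean of probe sets gave 0 higher in Tbk1-/- Ikbke-/- and 2 higher in WT after B-DNA, and for mock over WT 2 lower in Tbk1-/-, 10 lower in Ikbke-/- and 0 lower in Tbk1-/- Ikbke-/- cells. At 1.5-fold there were 2 higher and 4 lower in Ikbke-/-, 6 higher and 2 lower in Tbk1-/- Ikbke-/- and 3 higher and 4 lower in WT after B-DNA, and for mock over WT 9 lower in Tbk1-/- and 18 higher and 3 lower in Tbk1-/- Ikbke-/- cells. With the Tbk1-/- mock array in place of WT mock there were 1 higher and 7 lower in Ikbke-/- and 0 lower in Tbk1-/- Ikbke-/- cells. With B-DNA arrays in place of mock, 4 were lower in Tbk1-/- and 15 higher and 2 lower in Tbk1-/- Ikbke-/- cells. Apart from fewer arrays and a changed threshold, the cause was not tested.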

Other observations

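Targets of p53 were measured because Cdkn1a is one of them. Of 14 measured, 12 reached 244 in Ikbke-/- cells, where 2 were higher after B-DNA and 1 lower, against 5.33% and 2.46% of all genes. Trp53inp1, a p53-induced nuclear protein, gave B-DNA and mock signals of 329.9 and 286 in Tbk1-/-, 1370.5 and 509 in Ikbke-/-, 1640.1 and 1289 in Tbk1-/- Ikbke-/-, and 832 and 503 in WT cells. Bbc3 (Puma, a pro-apoptotic protein) gave 525 and 237 in Ikbke-/- cells and 397 and 268 in WT cells, and Sesn1 gave 158 and 346 in Ikbke-/- and 201 and 265 in WT cells (B-DNA and mock). In Tbk1-/-, Tbk1-/- Ikbke-/- and WT cells 0 of 12 were called after B-DNA in each.

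Cdkn1c (p57), an imprinted inhibitor of cyclin-dependent kinases, was higher than WT in each mutant on mock arrays, at 301 in Tbk1-/-, 455 in Ikbke-/- and 499 in Tbk1-/- Ikbke-/- cells, against 132 in WT cells. Ccng2, a cyclin linked to growth arrest, read 418 in Tbk1-/-, 142 in Ikbke-/- and 1113 in Tbk1-/- Ikbke-/- cells, against 302 in WT cells. It was lowest in Ikbke-/- and highest in Tbk1-/- Ikbke-/- cells, as were most replication and mitosis genes on the scaled arrays. These comparisons share the WT mock array.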
